A study of Mus musculus with 12 samples.

Results

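The genes described here are 41 autism risk genes that are not chromatin regulators. They were given as a list of symbols and matched to the identifiers of the count table through the GRCm38 annotation. All 41 were found among the 18911 genes of the table, and each had more than 10 counts in total. The data are bulk poly(A) RNA-Seq of mouse neural progenitor cells (mNPCs) grown from the hippocampus of newborn pups, with 12 libraries in 4 genotypes of 3 libraries each. The wild type is Kmt2a+/+. Kmt2a+/LSL carries 1 allele with a lox-STOP-lox cassette in intron 1 of Kmt2a, which stops its transcript early. Nes-Cre+/- Kmt2a+/LSL carries that allele and a nestin-Cre transgene that removes the cassette. Nes-Cre+/- Kmt2a+/+ carries the transgene without the allele. All mice were on a C57BL/6J background, and all cultures held FGF-2 and EGF. The mutant mice stem from 1 founder line, the Cre acts only in cells that have expressed nestin, and the sources used here do not say which cultures shared a litter, so p-values measure the spread between these libraries.

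The 41 genes encode proteins that act at different places in a neuron. SHANK scaffolds, neuroligins, neurexins and contactins hold the synapse and the axon together, sodium, calcium and potassium channels with their ankyrin anchors set excitability, and the proteins of the TSC, NF1 and FMRP pathways set growth and local translation. Many of them are long genes that are used most in mature neurons and only weakly in dividing progenitors. KMT2A is a histone H3 lysine 4 methyltransferase whose CXXC domain binds unmethylated CG dinucleotides, and heterozygous loss of it in people is linked to a neurodevelopmental syndrome in which autism is common.

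Levels are given as CPM, the counts of a gene scaled to a common library size after TMM normalization. Library totals lay between 18280008 and 28596919 estimated counts, so 3 counts correspond to 0.105 to 0.164 CPM before TMM factors are applied. Kmt2a checked the labels: it lay between 281 and 300.3 CPM in Kmt2a+/+, between 166 and 167 CPM in Kmt2a+/LSL, between 283 and 310 CPM in Nes-Cre+/- Kmt2a+/+, and between 259 and 284 CPM in Nes-Cre+/- Kmt2a+/LSL. The 10 neural progenitor markers were all detected and summed to 6395 to 13134 CPM. The 7 oligodendrocyte lineage markers summed to 1199 to 5560 CPM, the 8 astrocyte markers to 1566 to 4843 CPM and the 10 neuron markers to 1040 to 1929 CPM, while the 4 tested microglia and macrophage markers summed to 2.76 CPM or less, with 3 of them under 1 CPM. The lowest oligodendrocyte lineage and astrocyte sums and the highest neuron and progenitor sums were all in Kmt2a+/+ replicate 1. There the neuron sum was mostly Map2 (1874 CPM), and the progenitor sum mostly Fabp7 and Vim (8960 and 2864 CPM). Single markers of both lists went both ways: Dcx, Snap25 and Pax6 were highest in that library, and Tubb3, Syp, Hes5, Msi1, Sox2 and Notch1 lowest. That library correlated least with its own genotype (a median correlation of 0.903 across genes, against 0.967 to 0.984 in the other 3 genotypes). It also departed from the other wild type libraries with the GC content of the genes, as did Nes-Cre+/- Kmt2a+/LSL replicate 1 to a lesser degree, so results are given with and without Kmt2a+/+ replicate 1. The Y-linked gene Ddx3y was read in 8 libraries and had no count in the other 4, which is given because some members are X-linked: it was read in 3 of 3 Kmt2a+/LSL libraries, in 2 of 3 Kmt2a+/+, in 1 of 3 Nes-Cre+/- Kmt2a+/+ and in 2 of 3 Nes-Cre+/- Kmt2a+/LSL.

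The members spanned a wide range of expression in mNPCs. Mean CPM over the 12 libraries ran from 0.181 for the calcium channel gene Cacna1e to 725 for the ankyrin gene Ank2. It was over 100 CPM for 10 members and under 1 CPM for 5. Levels between genes are compared per kb of exon. On that scale the RNA helicase gene Ddx3x was highest at 76.8 CPM per kb, followed by the ubiquitin ligase scaffold Cul3 at 37.8, the inhibitory synapse adhesion gene Nlgn2 at 30.7, Cyfip1, which encodes a partner of FMRP in the WAVE complex, at 27.1 and Nlgn3 at 24.7 CPM per kb. The range of the 12 libraries overlapped between each of the 40 pairs of neighbours in this order. These ranges include Kmt2a+/+ replicate 1 and do not compare genes within a library. Cul3 reached 86.4 CPM per kb in that replicate, above the lowest Ddx3x library at 63.1. Within every library Ddx3x was still above Cul3.

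Members of most roles were spread along this order. In each role the member with the highest mean level per kb was Shank3 among the scaffolds (3.08 CPM per kb), Nlgn2 among the neuroligins and neurexins (30.7), Cntn6 among the contactins (0.536), Ank2 among the channels, ankyrins and transporters (20.7), Ptpro among the adhesion and extracellular genes (14.7), Cul3 in growth and translation signalling (37.8) and Ddx3x among the nuclear and RNA-binding regulators (76.8). The lowest levels per kb were those of Cacna1e (0.00717 CPM per kb), Cacna1c (0.0449), the contactin-associated gene Cntnap2 (0.0473), the protocadherin Pcdh15 (0.0529) and the sodium channel Scn1a (0.0556). Of these, Cacna1e, Cntnap2 and Scn1a are genes of mature neurons, and Pcdh15 is best known from sensory cells. In the 2 calcium channel genes at least 1 library had no count at all, and 33 of the 41 members had 10 counts or more in every library.

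**Figure D1:**
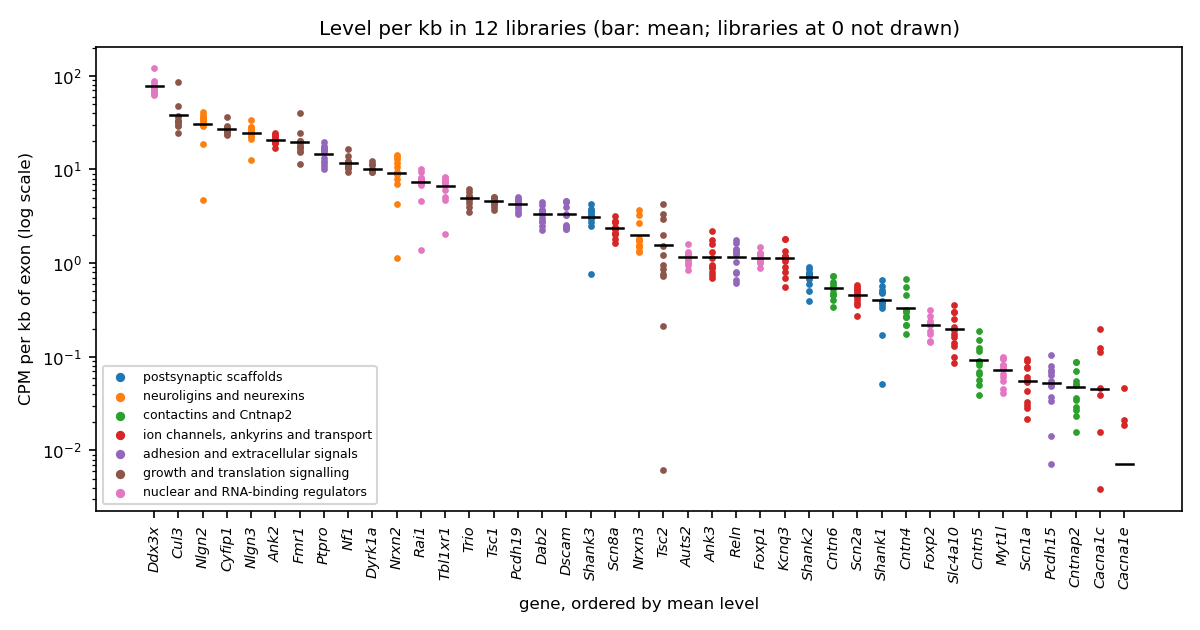
Level of each member in CPM per kb of exon (log axis), with members ordered by their mean over 12 libraries, 1 point per library and a bar for the mean, coloured by role. Ddx3x is highest at 76.8 CPM per kb and Cacna1e lowest at 0.00717, libraries of neighbouring members overlap throughout, and 1 library lies far below the others in Nlgn2, Nrxn2, Rai1, Shank1 and Shank3.

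Kmt2a+/+ replicate 1 lay at the edge of the 12 libraries in most members. It was the lowest of the 12 libraries for 15 members and the highest for 14, together 70.7% of the members, against 64.1% of all 17076 genes tested. GC-rich members were low in it. Nrxn2, a presynaptic neurexin of 61.4% GC, was at 15.8 CPM in Kmt2a+/+ replicate 1 and at 177 and 162 CPM in the other wild type libraries, a 10.8-fold difference. Nlgn2 (60% GC) was 8.5-fold lower, at 27 CPM against 220 and 239.6 CPM. Rai1, a nuclear regulator whose loss causes Smith-Magenis syndrome (60.4% GC), was 7.15-fold lower, at 13.2 CPM against 91 and 97.8 CPM.

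Shank1 (62.5% GC) and Shank3 (62.1% GC), which encode scaffolds of excitatory synapses, were 10.3-fold and 5.15-fold lower there. GC-poor members were high in the same library. Fmr1, the fragile X gene (38.6% GC), was at 356 CPM against 136 and 103 CPM, and Cul3 (39% GC) was at 421 CPM against 144 and 121 CPM. Among the members at 1 CPM or more, the 6 with at least 55% GC were all lower in Kmt2a+/+ replicate 1, with a median log2 difference of -2.96, and all genes of that GC class had a median of -1.83. Of the 10 members under 45% GC, 8 were higher, with a median log2 difference of 0.82 against 1.09 for all genes of the class. For Nes-Cre+/- Kmt2a+/LSL replicate 1 the same GC-rich members had a median log2 difference of -0.71 and all genes of their class one of -0.41.

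Tbl1xr1 departed from this order: with 42.7% GC it was lower in Kmt2a+/+ replicate 1, by 2.41-fold. Tsc2, the tuberin gene of the TSC complex, varied in a way of its own. Its level was 0.0595, 19.1 and 2.06 CPM in the 3 Kmt2a+/+ libraries, 6.97, 7.31 and 14.6 CPM in Kmt2a+/LSL, 11.7, 9.15 and 28.4 CPM in Nes-Cre+/- Kmt2a+/+, and 31.8, 8.32 and 41.4 CPM in Nes-Cre+/- Kmt2a+/LSL. The 3 libraries of each genotype spread widely, so that no comparison of Tsc2 rests on a stable level, and 9.72% of its transcript words of 31 bases also occur in another gene, mostly the neighbouring Pkd1. Shared words were most frequent in Nlgn3 (41.9%, mostly with the gene model Gm21986), Cyfip1 (12.9%, Nipa2) and the sodium channel pair Scn2a and Scn1a (9.17% and 7.29%), whose values are uncertain to that degree.

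**Figure D2:**
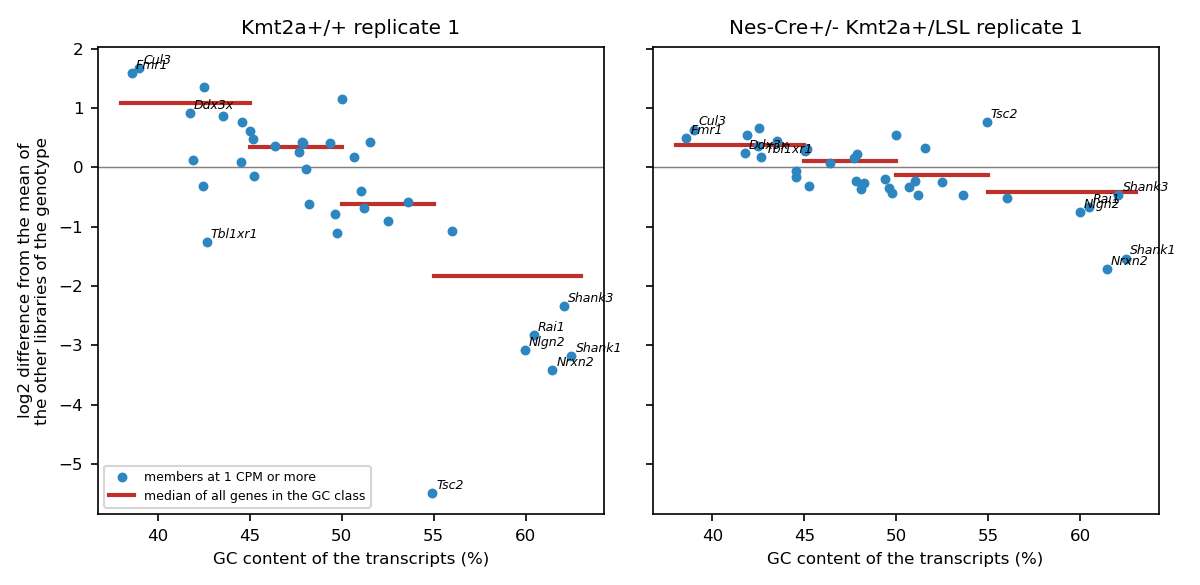
Log2 difference of Kmt2a+/+ replicate 1 (left) and Nes-Cre+/- Kmt2a+/LSL replicate 1 (right) from the mean of the other libraries of the same genotype, against the GC content of each member's transcripts in percent; points are members at 1 CPM or more and bars are medians of all genes in 4 GC classes. In Kmt2a+/+ replicate 1 the medians fall from 1.09 under 45% GC to -1.83 at 55% or more, and Nrxn2, Shank1, Nlgn2, Rai1 and Shank3 lie below the bar of their class, as does Tsc2 in the class below.

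**Figure D3:**
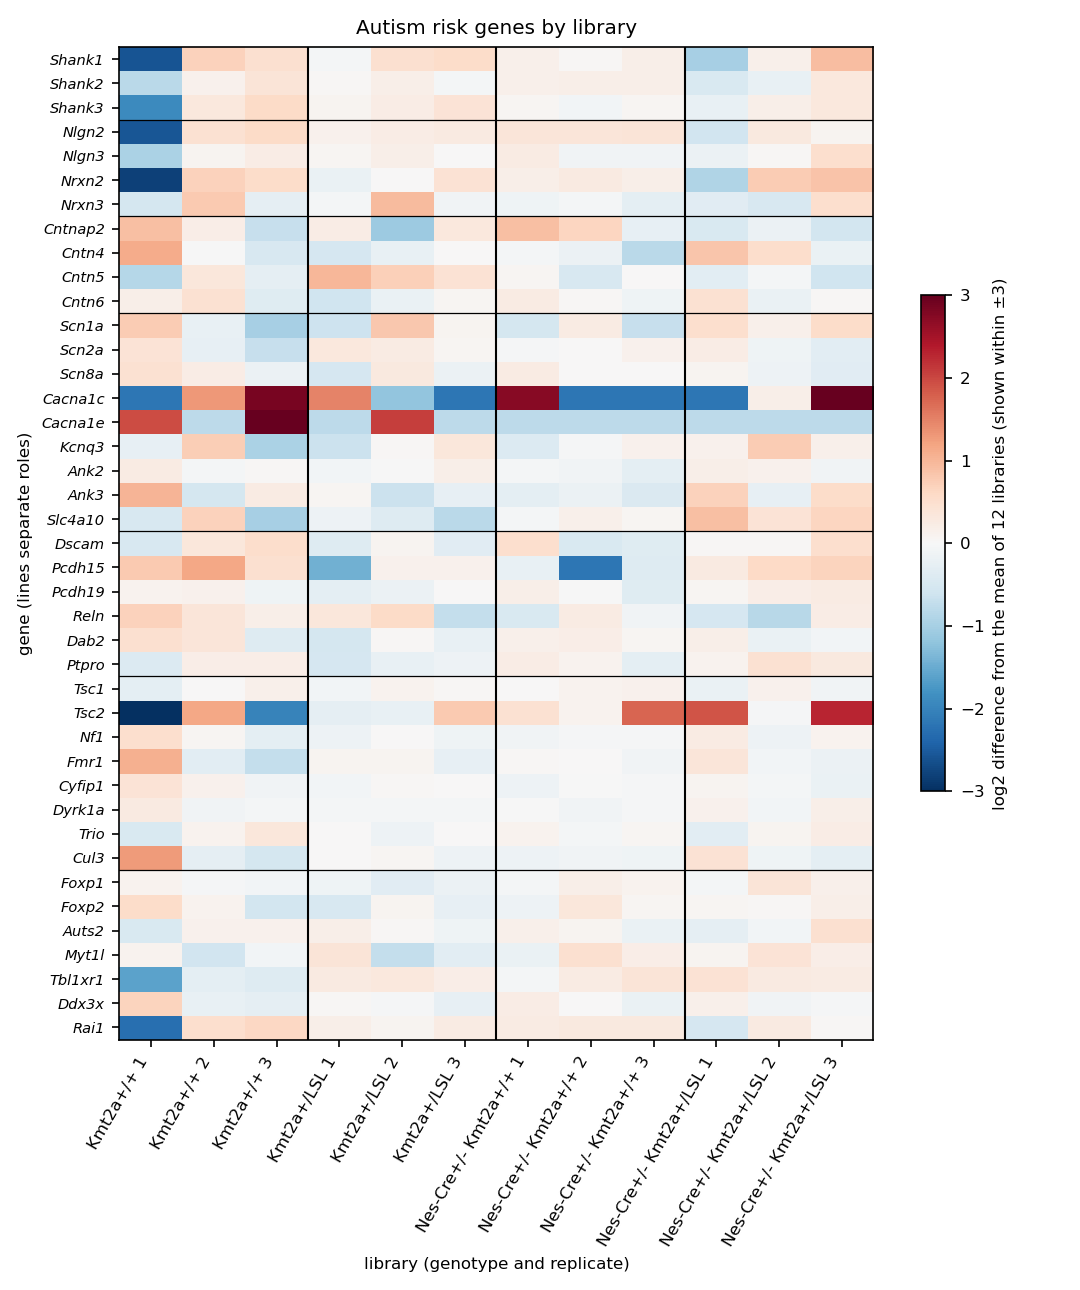
Log2 difference of each member (rows, grouped by role) from its mean over the 12 libraries (columns, grouped by genotype), with colours limited to 3 in either direction. The first column, Kmt2a+/+ replicate 1, has the strongest colours apart from the rows of Cacna1c, Cacna1e and Tsc2, which vary from library to library, Cacna1e only in the genotypes without nestin-Cre.

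No member was called in any comparison at an adjusted p under 0.05 by edgeR's quasi-likelihood test with Benjamini-Hochberg adjustment over 17076 genes. Kmt2a itself was not called in this fit either, although its Kmt2a+/LSL libraries overlapped no other library. Its log2 difference was -0.80 ± 0.13 in Kmt2a+/LSL against Kmt2a+/+ (edgeR unadjusted p = 4.34e-05, adjusted p = 0.281). In Nes-Cre+/- Kmt2a+/LSL against Kmt2a+/LSL it was 0.71 ± 0.12 (edgeR unadjusted p = 0.000125). A lack of calls therefore does not show a lack of change. The comparison of Kmt2a+/LSL against Kmt2a+/+ asks what the loss of 1 Kmt2a allele changed, and that of Nes-Cre+/- Kmt2a+/LSL against Kmt2a+/LSL what removal of the cassette changed. The share of all genes called was 0% in each comparison of 2 genotypes, and in Kmt2a+/LSL against the other 3 genotypes it was 0.00586%, which is a single gene, Grb10, that is no member and is named after its value was seen. Limma-voom called no member, nor did the DESeq2 Wald test, which called 0.0411% of all genes in each of these 2 comparisons, 0.0176% in each of those with Nes-Cre+/- Kmt2a+/+, 0.0235% in Kmt2a+/LSL against the other 3 genotypes and 0.0587% for the interaction of allele and transgene. DESeq2 with an empirical null, which rescales the test statistics to the centre of their own distribution and is closest to the procedure of the study, called 7 members in Nes-Cre+/- Kmt2a+/LSL against Kmt2a+/LSL (Slc4a10, Foxp1, Ptpro, Cntn5, Pcdh19, Cntn4 and Ank3), where it called 5.53% of all genes. It called 4 in Kmt2a+/LSL against the other 3 genotypes (Slc4a10, Foxp1, Ptpro and Cntn5), where it called 2.57%, and 1, Pcdh15, in Nes-Cre+/- Kmt2a+/LSL against Nes-Cre+/- Kmt2a+/+, where it called 1.53%. It called no member in Kmt2a+/LSL against Kmt2a+/+ (0.187% of all genes), in Nes-Cre+/- Kmt2a+/+ against Kmt2a+/+ (0.041%) or for the interaction (0.0996%). On simulated counts for Kmt2a+/LSL against Kmt2a+/+ with the dispersions estimated per gene, 103 of the 267 genes called with the empirical null had not been changed. The other comparisons, in which it called members, were not simulated.

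At an unadjusted p under 0.05 in the edgeR fit, 1 member stood out in Kmt2a+/LSL against Kmt2a+/+, beside 1.79% of all genes. The counts were 3 members in Nes-Cre+/- Kmt2a+/LSL against Kmt2a+/LSL (1.61% of all genes), 3 in Nes-Cre+/- Kmt2a+/+ against Kmt2a+/+ (1.4%), 1 in Nes-Cre+/- Kmt2a+/LSL against Nes-Cre+/- Kmt2a+/+ (1.11%) and 2 in Kmt2a+/LSL against the other 3 genotypes (1.2%). In the effect of LSL with minus without nestin-Cre, the interaction of allele and transgene, it was 3 (1.73%). With 41 members, 3 are 7.32% of the list and 1 is 2.44%. Without Kmt2a+/+ replicate 1 these counts were higher, and so were the shares of all genes: 5 members in Nes-Cre+/- Kmt2a+/LSL against Kmt2a+/LSL (3.89% of all genes), 5 in Nes-Cre+/- Kmt2a+/+ against Kmt2a+/+ (6.09%), 4 in Nes-Cre+/- Kmt2a+/LSL against Nes-Cre+/- Kmt2a+/+ (3.23%), 4 in Kmt2a+/LSL against the other 3 genotypes (2.87%) and 5 for the interaction (3.31%).

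The median log2 fold change of the members in Kmt2a+/LSL against Kmt2a+/+ was -0.17, with 26 of 41 below 0, and the median of all genes was 0.0011. The members' median ran from -0.21 to -0.12 with 1 library left out at a time, and was -0.11 with the replicate as a block and -0.095 with a GC offset and both GC-departing libraries left out. For Nes-Cre+/- Kmt2a+/LSL against Kmt2a+/LSL it was 0.07, with 27 of 41 above 0, against 0.0017 for all genes, and it ran from 0.064 to 0.14 with 1 library left out at a time (0.14 without replicate 2 of either genotype) and was 0.039 with an offset for GC content. These comparisons share the Kmt2a+/LSL libraries, so their opposite signs are not independent. In Nes-Cre+/- Kmt2a+/+ against Kmt2a+/+ the median of the members was -0.06, with 24 of 41 below 0, and in Nes-Cre+/- Kmt2a+/LSL against Nes-Cre+/- Kmt2a+/+ it was 0.10, with 27 of 41 above 0. With 1 library left out at a time these latter medians ran from -0.15 to 0.056 and from 0.018 to 0.14, so the sign of the first depended on single libraries (0.056 without Kmt2a+/+ replicate 2).

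For Kmt2a+/LSL against Kmt2a+/+ the members' log2 fold changes had a median SE of 0.36. Without Kmt2a+/+ replicate 1 it was 0.23, and the median fold change was -0.13, while 17 of the 41 members changed sign. Then 6 of 41 members (14.6%) had an unadjusted p under 0.05 beside 8.95% of all genes. They were Tbl1xr1, Fmr1 and Scn2a, which were higher in Kmt2a+/LSL, and Ptpro, Dscam and Rai1, which were lower. None of them was called, with an adjusted p of 0.551 for each. Without both GC-departing libraries the count was 10 of 41 (24.4%) beside 14.6% of all genes, and 3 (7.32%) beside 5.43% with a GC offset added.

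**Figure D4:**
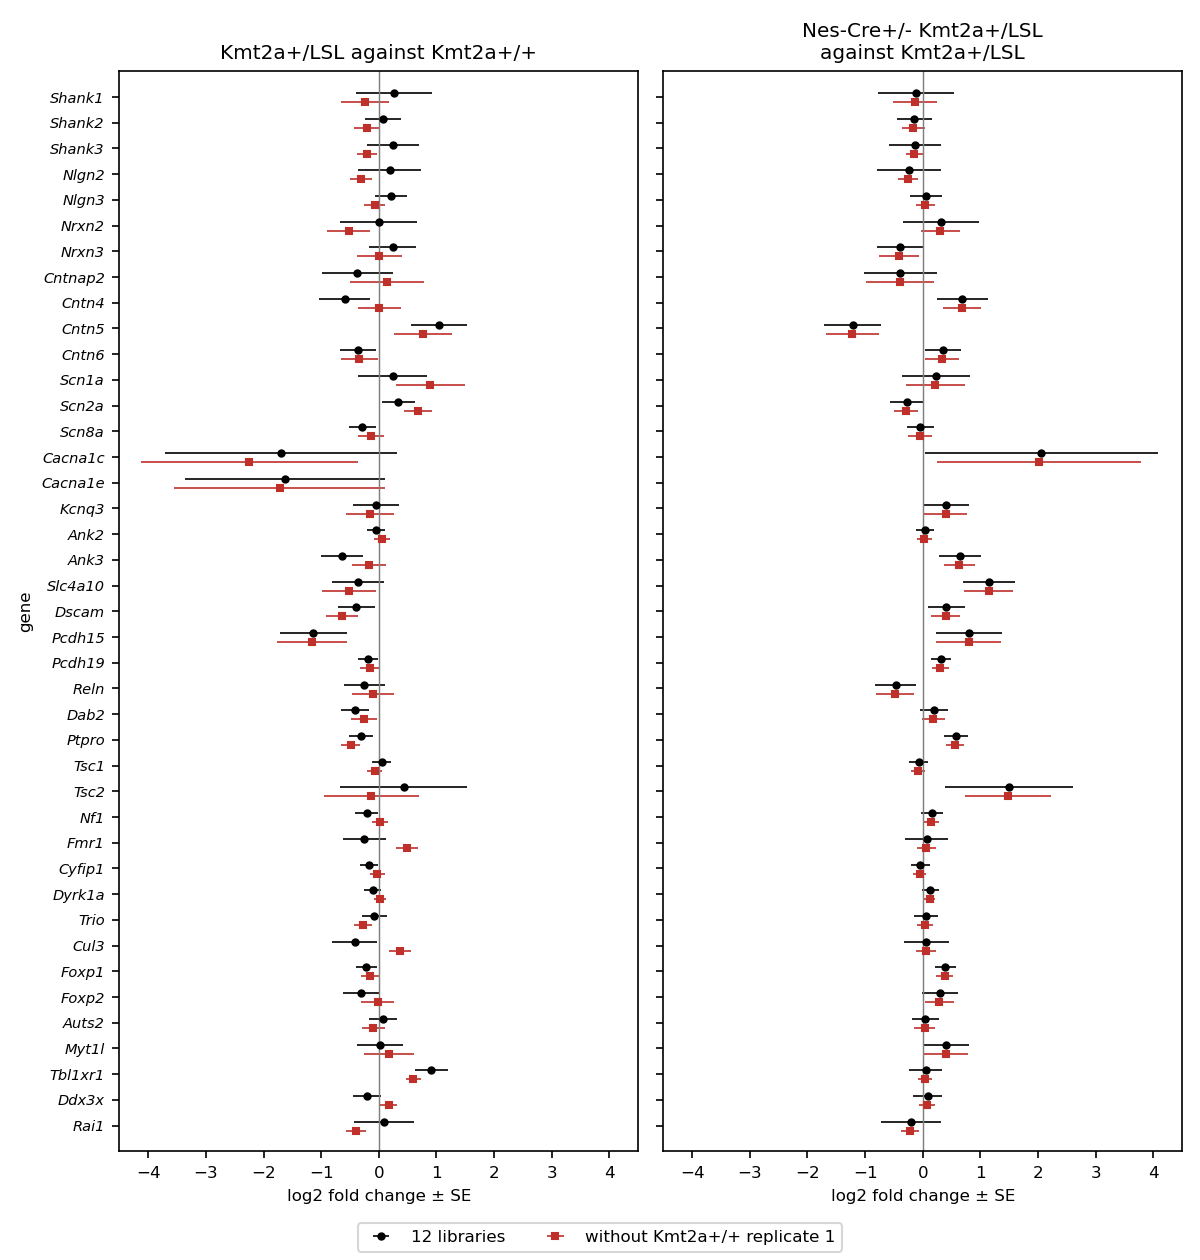
Log2 fold change of each member with its SE, for Kmt2a+/LSL against Kmt2a+/+ (left) and Nes-Cre+/- Kmt2a+/LSL against Kmt2a+/LSL (right); black circles are the fit of 12 libraries and red squares the fit without Kmt2a+/+ replicate 1, and a member is left out where a group has no count. Tbl1xr1 lies farthest above 0 for its SE on the left, Ptpro, Slc4a10 and Cntn5 lie away from 0 on the right, and on the left 17 of 41 members change sign without that library, Cul3, Fmr1, Nlgn2 and Rai1 among them.

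Among the postsynaptic scaffolds, Shank3 was at 7.02, 32.8 and 39.5 CPM in Kmt2a+/+ and at 28.1, 30.8 and 35 CPM in Kmt2a+/LSL. It was at 27.6, 25.1 and 27.6 CPM in Nes-Cre+/- Kmt2a+/+ and at 22.7, 29.8 and 33.2 CPM in Nes-Cre+/- Kmt2a+/LSL. All libraries of Kmt2a+/LSL lay above those of Nes-Cre+/- Kmt2a+/+, and Kmt2a+/+ spanned all other genotypes through its low replicate 1. Without that library Nes-Cre+/- Kmt2a+/+ was below Kmt2a+/+ by a log2 difference of -0.44 ± 0.17 (edgeR adjusted p = 0.733). Kmt2a+/LSL differed from Kmt2a+/+ by 0.24 ± 0.45 on the log2 scale (SE; edgeR adjusted p = 1), and by -0.21 ± 0.17 without that library, so its direction depended on 1 wild type library. All 3 SHANK genes had positive log2 fold changes in that comparison, between 0.07 and 0.26, and all 3 were negative without Kmt2a+/+ replicate 1, between -0.20 and -0.24.

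The neuroligins bridge the synaptic cleft by binding the neurexins. Nlgn2 was at 175, 187 and 193 CPM in Kmt2a+/LSL, 206, 204 and 209 CPM in Nes-Cre+/- Kmt2a+/+, and 107, 194 and 169 CPM in Nes-Cre+/- Kmt2a+/LSL. Its Nes-Cre+/- Kmt2a+/LSL libraries were all below those of Nes-Cre+/- Kmt2a+/+, although the lowest of them is the GC-departing replicate 1, and the log2 difference of -0.40 ± 0.55 was within its error (edgeR adjusted p = 1, two-sided exact permutation p = 0.1). Without Kmt2a+/+ replicate 1 it was -0.41 ± 0.17 and had an unadjusted p under 0.05. With both GC-departing libraries left out it had no such p, while with a GC offset added to that it did. Kmt2a+/LSL differed from Kmt2a+/+ by a log2 value of 0.19 ± 0.55, which became -0.31 ± 0.19 without Kmt2a+/+ replicate 1. Nrxn2 ran from 96.2 to 148 CPM in Kmt2a+/LSL and from 58.5 to 198 CPM in Nes-Cre+/- Kmt2a+/LSL. Nrxn3 ran from 16.5 to 46.2 CPM over the 12 libraries, with its 2 highest values in Kmt2a+/LSL replicate 2 and Kmt2a+/+ replicate 2, and neither neurexin had an unadjusted p under 0.05 in any comparison of the 12-library fit. Without both GC-departing libraries Nrxn2 did in each of the 6 comparisons, and was not called.

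The contactins are immunoglobulin superfamily adhesion proteins of the axon. Cntn5 was higher in Kmt2a+/LSL than in every other library, at a very low level. It was at 0.862, 0.69 and 0.56 CPM in Kmt2a+/LSL, from 23, 17 and 13 counts. It was at 0.178, 0.517 and 0.309 CPM in Kmt2a+/+, at 0.406, 0.257 and 0.397 CPM in Nes-Cre+/- Kmt2a+/+, and at 0.299, 0.375 and 0.228 CPM in Nes-Cre+/- Kmt2a+/LSL.

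The mean of Cntn5 in Kmt2a+/LSL was 2.14-fold that of the other 9 libraries, a log2 difference of 1.08 ± 0.38 (edgeR unadjusted p = 0.015, adjusted p = 0.9999, two-sided exact permutation p = 0.00455). That exact p is the smallest that 3 against 9 libraries can give, and it is for 1 gene out of the 41 looked at. Only 28 genes, or 0.164% of those tested, lay above all other libraries in this way, and Cntn5 was the 1 member among them. It was lower again in Nes-Cre+/- Kmt2a+/LSL, by a log2 difference from Kmt2a+/LSL of -1.21 ± 0.49 (edgeR unadjusted p = 0.0318, two-sided exact permutation p = 0.1). The gene lies at chr9:9660891-10904775 (GRCm38, minus strand) and spans 1244 kb.

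Cntn6 was at 3.87, 4.73 and 2.64 CPM in Kmt2a+/+ and 2.21, 2.97 and 3.58 CPM in Kmt2a+/LSL, a log2 difference of -0.36 ± 0.31 (edgeR adjusted p = 1). Cntn4 was at 5.77, 2.62 and 1.85 CPM in Kmt2a+/+, 1.84, 2.23 and 2.67 CPM in Kmt2a+/LSL, 2.52, 2.31 and 1.47 CPM in Nes-Cre+/- Kmt2a+/+ and 4.73, 3.86 and 2.28 CPM in Nes-Cre+/- Kmt2a+/LSL. Its 2 highest values were in the 2 libraries that depart with GC content. Its interaction had a log2 value of 1.38 ± 0.63, which passed only without adjustment (edgeR adjusted p = 0.9999) and was 0.53 with both of those libraries left out. Cntnap2, which clusters potassium channels along the axon, had between 4 and 22 counts per library.

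Among the channels and their anchors, Ank2 was the most abundant transcript, at 854, 688 and 734 CPM in Kmt2a+/+, 680 to 814 CPM in Kmt2a+/LSL, 587 to 688 CPM in Nes-Cre+/- Kmt2a+/+ and 670 to 814 CPM in Nes-Cre+/- Kmt2a+/LSL. The log2 difference of Kmt2a+/LSL from Kmt2a+/+ was -0.04 ± 0.16 (edgeR adjusted p = 1). Ank3, which encodes the organiser of the axon initial segment, was at 76.9, 26.3 and 45.3 CPM in Kmt2a+/+ and 39.4, 24.4 and 31.8 CPM in Kmt2a+/LSL. It was at 30.9, 33.5 and 28.2 CPM in Nes-Cre+/- Kmt2a+/+ and 61.8, 31.9 and 55.7 CPM in Nes-Cre+/- Kmt2a+/LSL. Both genotypes with a GC-departing library had the wide spread, though in Nes-Cre+/- Kmt2a+/LSL the value apart was replicate 2 and not the GC-departing replicate 1. The interaction had a log2 value of 1.32 ± 0.51, which again passed only without adjustment (edgeR adjusted p = 0.9999) and was 0.85 without Kmt2a+/+ replicate 1 and 0.66 without both GC-departing libraries.

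Slc4a10, which encodes a sodium-dependent bicarbonate transporter of neurons and choroid plexus, was at 2.29, 1.61 and 1.91 CPM in Nes-Cre+/- Kmt2a+/LSL and at 1.05, 0.894 and 0.646 CPM in Kmt2a+/LSL. The log2 difference was 1.16 ± 0.45 (edgeR unadjusted p = 0.0255, two-sided exact permutation p = 0.1), a 2.25-fold difference of the means, and the libraries did not overlap. It was at 0.833, 1.95 and 0.549 CPM in the wild type and in Nes-Cre+/- Kmt2a+/+ at 1.14, 1.33 and 1.23 CPM, so the wild type libraries overlapped with each of the other genotypes. With both GC-departing libraries left out the log2 difference was 0.999 and no longer had an unadjusted p under 0.05, while with a GC offset added to that it did (1.06). The summed ependymal and choroid plexus markers were at 14.2 to 19.1 CPM in Nes-Cre+/- Kmt2a+/LSL and 17.7 to 29 CPM in Kmt2a+/LSL, and the summed neuron markers at 1380 to 1737 CPM and 1303 to 1556 CPM. The first sum was mostly Foxj1 (13.4 to 18.2 and 17.1 to 27.9 CPM). The other 4 markers, with Ttr, Kl and Folr1 of the choroid plexus among them, were under 1 CPM. The neuron sum was mostly Map2. The part of either cell type in the result was not tested. In bulk RNA, more cells that express a gene and more of its RNA per cell cannot be told apart.

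Cacna1e, the R-type calcium channel gene, had 8, 0 and 34 counts in the wild type. It had 0, 13 and 0 in Kmt2a+/LSL and 0 in all 6 libraries with the transgene. The wild type level rested mostly on replicate 3. Its mean was at least 4.45-fold that of Nes-Cre+/- Kmt2a+/+, with 3 counts per library taken as the floor there. That comparison had an edgeR unadjusted p of 0.0409 and a two-sided exact permutation p of 0.4. Cacna1c, the L-type channel of Timothy syndrome, had from 0 to 92 counts with 5 libraries at 0 in 4 genotypes. The sodium channel Scn2a was at 7.49, 4.77 and 3.47 CPM in Kmt2a+/+ and 7.12, 6.74 and 5.95 CPM in Kmt2a+/LSL. It had a log2 fold change of 0.34 with all libraries and 0.68 ± 0.24 without Kmt2a+/+ replicate 1. The potassium channel Kcnq3 ran from 10.2 to 20 CPM in Kmt2a+/LSL and from 17.3 to 26.7 CPM in Nes-Cre+/- Kmt2a+/LSL, and did not pass p under 0.05.

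The adhesion and extracellular genes were all 6 below 0 in Kmt2a+/LSL against Kmt2a+/+, with a median log2 fold change of -0.35. Relative to Kmt2a+/LSL, 5 of 6 were above 0 in Nes-Cre+/- Kmt2a+/LSL, with a median of 0.37, in a comparison that shares the Kmt2a+/LSL libraries with the first. Their median in Nes-Cre+/- Kmt2a+/+ against Kmt2a+/+, which has no LSL allele and shares the wild type libraries, was -0.16, from -1.65 in Pcdh15 to -0.0013 in Ptpro. Ptpro, a receptor tyrosine phosphatase of axons and podocytes, was the most abundant of them. It was at 73.2, 112 and 112 CPM in Kmt2a+/+, 68.5, 83 and 88 CPM in Kmt2a+/LSL, 112, 105 and 78.9 CPM in Nes-Cre+/- Kmt2a+/+ and 105, 133 and 118 CPM in Nes-Cre+/- Kmt2a+/LSL. Kmt2a+/LSL held the lowest library and overlapped with Kmt2a+/+ through replicate 1 and with Nes-Cre+/- Kmt2a+/+ through replicate 3.

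Ptpro was higher in Nes-Cre+/- Kmt2a+/LSL than in Kmt2a+/LSL in every library, by a log2 difference of 0.57 ± 0.21 (edgeR unadjusted p = 0.0196, two-sided exact permutation p = 0.1), or 1.49-fold. Kmt2a+/LSL was below the mean of the other 3 genotypes by a log2 difference of -0.40 ± 0.18 (edgeR unadjusted p = 0.0444, two-sided exact permutation p = 0.0455). Against Kmt2a+/+ the difference was -0.31 ± 0.21 (two-sided exact permutation p = 0.3), and -0.49 ± 0.17 without Kmt2a+/+ replicate 1. Adjusted p-values in these comparisons were 0.9999 or 1 with all libraries.

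Pcdh15, a protocadherin best known from the hair cells of the inner ear, was at 1.9, 2.46 and 1.51 CPM in Kmt2a+/+, 0.337, 1.18 and 1.16 CPM in Kmt2a+/LSL, 0.894, 0.171 and 0.795 CPM in Nes-Cre+/- Kmt2a+/+ and 1.3, 1.65 and 1.73 CPM in Nes-Cre+/- Kmt2a+/LSL. All libraries of Kmt2a+/+ and of Nes-Cre+/- Kmt2a+/LSL lay above all those of Kmt2a+/LSL and Nes-Cre+/- Kmt2a+/+. The log2 difference was -1.65 ± 0.59 in Nes-Cre+/- Kmt2a+/+ against Kmt2a+/+ (edgeR unadjusted p = 0.017) and 1.32 ± 0.59 in Nes-Cre+/- Kmt2a+/LSL against Nes-Cre+/- Kmt2a+/+ (unadjusted p = 0.0457), with a two-sided exact permutation p of 0.1 in both. Without both GC-departing libraries the second of these log2 differences was 1.41 and no longer had an unadjusted p under 0.05. The level rests on 4 to 62 counts per library.

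Among the other adhesion genes, Pcdh19, an X-linked protocadherin of a female-limited epilepsy, ran from 34.8 to 53.4 CPM over the 12 libraries, and its 3 Nes-Cre+/- Kmt2a+/LSL libraries lay above the 3 Kmt2a+/LSL libraries with a log2 difference of 0.32. Reln, the secreted glycoprotein that guides neuronal migration, ran from 14.7 to 41.8 CPM. Dab2, an endocytic adaptor, ran from 16.7 to 33.1 CPM and Dscam, an immunoglobulin adhesion gene, from 20.2 to 40.5 CPM. Dscam was lower in Kmt2a+/LSL than in Kmt2a+/+ by a log2 difference of -0.39 ± 0.32 (edgeR adjusted p = 1), and of -0.63 ± 0.28 without Kmt2a+/+ replicate 1.

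Dyrk1a varied least of the growth and translation signalling genes outside Kmt2a+/+ replicate 1. It is a kinase gene of the Down syndrome region and was at 80, 80.9 and 81 CPM in Kmt2a+/LSL, and without Kmt2a+/+ replicate 1 its largest value was 1.22 times its smallest. It differed between Kmt2a+/LSL and Kmt2a+/+ by a log2 value of -0.11. Tsc1, Nf1, Cyfip1 and Trio had differences between -0.21 and 0.05 in that comparison, none with an unadjusted p under 0.05.

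Cul3 was at 421, 144 and 121 CPM in Kmt2a+/+, 176, 181 and 156 CPM in Kmt2a+/LSL, 157, 161 and 159 CPM in Nes-Cre+/- Kmt2a+/+ and 234, 160 and 142 CPM in Nes-Cre+/- Kmt2a+/LSL. The 2 highest values were the 2 GC-departing libraries. Kmt2a+/LSL differed from Kmt2a+/+ by -0.42 ± 0.39 on the log2 scale (edgeR adjusted p = 1) and by 0.37 ± 0.19 without Kmt2a+/+ replicate 1. Fmr1 went from -0.25 to 0.48 ± 0.19 in the same way. Fmr1 is X-linked, and the 8 libraries with Ddx3y reads ran from 136 to 356 CPM and the 4 without from 103 to 174 CPM.

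Among the nuclear and RNA-binding regulators, Tbl1xr1, which encodes a subunit of the NCoR and SMRT corepressor complexes, set Kmt2a+/+ apart from the other genotypes. It was at 18.3, 45.7 and 42.3 CPM in Kmt2a+/+. It was at 67.6, 69 and 63.7 CPM in Kmt2a+/LSL, 53.4, 65.7 and 72.5 CPM in Nes-Cre+/- Kmt2a+/+ and 74.5, 66.9 and 65.7 CPM in Nes-Cre+/- Kmt2a+/LSL. All 3 Kmt2a+/+ libraries were below the other 9, a pattern held by 48 genes or 0.281% of those tested, and Tbl1xr1 was the 1 member among them.

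The log2 difference of Tbl1xr1 from Kmt2a+/+ was 0.91 ± 0.28 in Kmt2a+/LSL (edgeR unadjusted p = 0.00778) and 0.85 ± 0.28 in Nes-Cre+/- Kmt2a+/+ (unadjusted p = 0.0117), with an adjusted p of 1 and a two-sided exact permutation p of 0.1 in both. The means differed by 1.88-fold and 1.8-fold. Without Kmt2a+/+ replicate 1 the log2 differences were 0.60 ± 0.14 and 0.53 ± 0.14. With an offset for GC content they were 0.76 and 0.70 and no longer had an unadjusted p under 0.05. With both GC-departing libraries left out they were 0.60 and 0.53, and both had such a p. They were 0.33 and 0.27 with that offset and both GC-departing libraries left out, and there only the one in Kmt2a+/LSL had such a p. Nes-Cre+/- Kmt2a+/LSL and Kmt2a+/LSL did not differ beyond their error (0.05 ± 0.28, edgeR adjusted p = 1), and the higher level was shared by the genotype with the transgene alone. A two-sided exact permutation p of 0.1 is the smallest that 3 against 3 libraries allow.

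Foxp1, a forkhead repressor of neural development, was lowest in Kmt2a+/LSL. It was at 14.2, 12.2 and 13.7 CPM there, against 16.9, 15.1 and 14.7 CPM in Kmt2a+/+, 14.8, 17.5 and 16.8 CPM in Nes-Cre+/- Kmt2a+/+ and 14.9, 20.3 and 17.4 CPM in Nes-Cre+/- Kmt2a+/LSL. All libraries of Kmt2a+/LSL were below the other 9, a pattern of 34 genes or 0.199% of those tested. The log2 difference from the other 3 genotypes was -0.30 ± 0.15, which did not pass in the edgeR fit of 12 libraries (unadjusted p = 0.0697), and the two-sided exact permutation test gave p = 0.00909 for this gene out of the 41 looked at. Foxp1 had an unadjusted p under 0.05 without Kmt2a+/+ replicate 1 (-0.27), with the GC offset (-0.31) and without both GC-departing libraries (-0.31), with edgeR adjusted p-values of 0.700 or more. The highest Kmt2a+/LSL library and the lowest of the others differed by less than the spread within each genotype.

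Ddx3x was at 637, 340 and 333 CPM in Kmt2a+/+, 407, 392 and 335 CPM in Kmt2a+/LSL, 463, 405 and 349.9 CPM in Nes-Cre+/- Kmt2a+/+ and 446, 369 and 387 CPM in Nes-Cre+/- Kmt2a+/LSL. Kmt2a+/LSL differed from Kmt2a+/+ by -0.21 ± 0.24 on the log2 scale (edgeR adjusted p = 1) and by 0.17 ± 0.15 without Kmt2a+/+ replicate 1. Apart from that library, the values with and without Ddx3y reads overlapped. Foxp2, Auts2 and Myt1l had log2 fold changes of -0.31, 0.07 and 0.02 in the same comparison, none with an unadjusted p under 0.05.

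**Figure D5:**
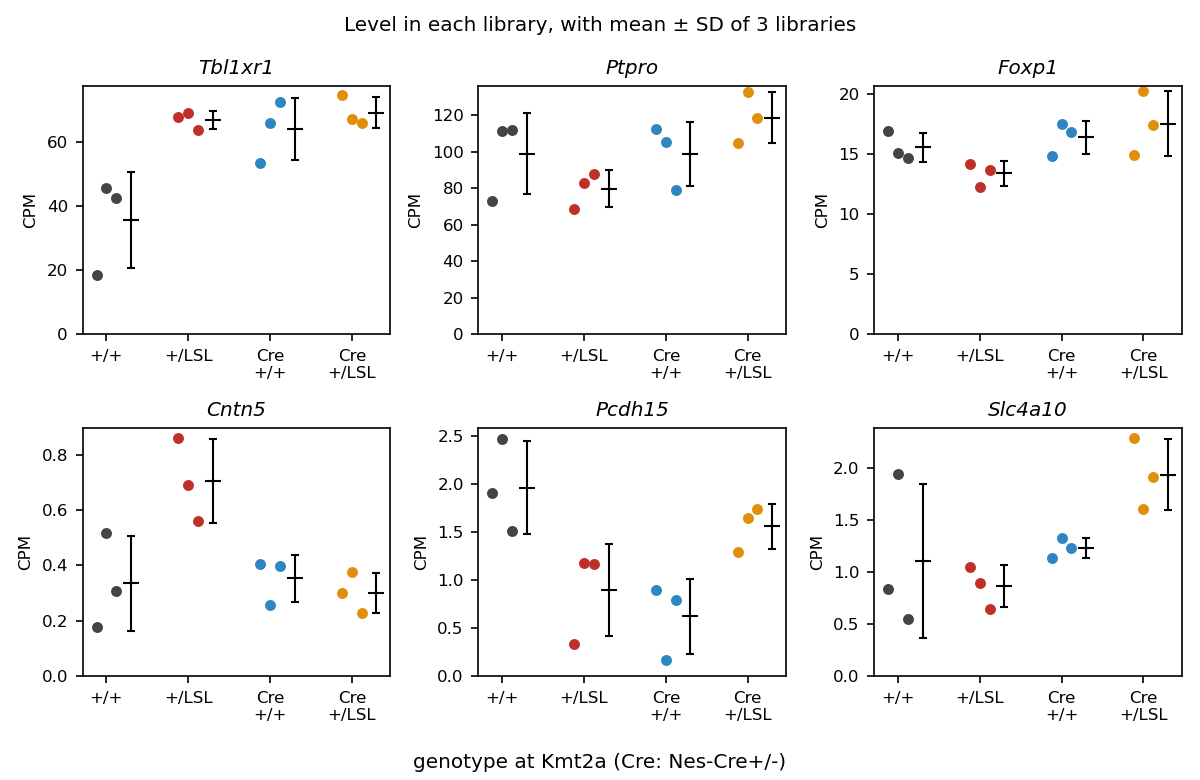
Level in CPM of 6 members in each library (points, replicates 1 to 3 from left to right within a genotype), with the mean and SD of 3 libraries beside them and axes from 0. Tbl1xr1 is lowest in the 3 Kmt2a+/+ libraries, Foxp1 lowest and Cntn5 highest in the 3 Kmt2a+/LSL libraries, and Pcdh15 is lower in Kmt2a+/LSL and Nes-Cre+/- Kmt2a+/+ than in the other genotypes.

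Counts of members whose libraries did not overlap between genotypes were small. In Kmt2a+/LSL against Kmt2a+/+, 2 members were higher in all libraries (Cntn5 and Tbl1xr1, beside 2.3% of all genes) and 2 lower (Pcdh15 and Foxp1, beside 1.76%). Relative to Kmt2a+/LSL, 5 were higher in Nes-Cre+/- Kmt2a+/LSL (Slc4a10, Pcdh15, Pcdh19, Ptpro and Foxp1, 12.2% of the members beside 3.54% of all genes) and 1 lower (Cntn5, beside 3.57%). In Nes-Cre+/- Kmt2a+/+ against Kmt2a+/+, Tbl1xr1 was higher (2.82% of all genes) and Pcdh15 lower (1.53%). Kcnq3, Slc4a10 and Pcdh15 were higher (3.1%) and Nlgn2 lower (3.58%) in Nes-Cre+/- Kmt2a+/LSL against Nes-Cre+/- Kmt2a+/+.

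The promoters of 3 of these members are shown because KMT2A binds CG dinucleotides and the 3 genes stand apart between genotypes in different ways. Each sequence is the 250 bases before the RefSeq transcription start (GRCm38.p6), read 5′ to 3′ on the gene's strand, with every CG in capitals.
Tbl1xr1, chr3:22076402-22076651, plus strand: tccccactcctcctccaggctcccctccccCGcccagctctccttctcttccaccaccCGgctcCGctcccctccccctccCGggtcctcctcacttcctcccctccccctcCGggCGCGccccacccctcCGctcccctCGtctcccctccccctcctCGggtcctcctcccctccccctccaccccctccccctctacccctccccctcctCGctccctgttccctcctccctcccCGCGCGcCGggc
Ptpro, chr6:137252049-137252298, plus strand: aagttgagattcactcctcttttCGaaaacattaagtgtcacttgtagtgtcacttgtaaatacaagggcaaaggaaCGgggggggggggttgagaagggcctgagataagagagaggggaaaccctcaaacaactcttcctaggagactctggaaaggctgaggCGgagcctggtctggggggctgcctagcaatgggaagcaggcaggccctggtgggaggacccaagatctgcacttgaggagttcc
Cntn5, chr9:10904727-10904976, minus strand: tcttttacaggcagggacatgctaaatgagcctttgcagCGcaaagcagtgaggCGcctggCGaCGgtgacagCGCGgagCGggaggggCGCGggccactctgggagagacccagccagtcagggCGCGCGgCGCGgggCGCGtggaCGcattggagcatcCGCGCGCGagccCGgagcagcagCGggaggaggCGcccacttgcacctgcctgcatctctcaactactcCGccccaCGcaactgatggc
The motif CG, which reads the same on both strands, occurs 15 times in the window of Tbl1xr1, 3 times in that of Ptpro and 26 times in that of Cntn5. The 26 of Cntn5, a gene at under 1 CPM, are matched or exceeded by 10.6% of the 27025 genes with such a window, and the 3 of Ptpro, a gene at about 100 CPM, by 72%. A window was given for 32 of the 41 members, taking the start with the most CG where there were several, and all 32 held at least 1 CG, as did 92.3% of all genes. Their counts ran from 3 in Ptpro, Slc4a10 and Cntn6 to 48 in Cacna1c, with a median of 18.5, beside a median of 15 for the 12319 tested genes with a window. Whether KMT2A was bound at any of them was not measured by these data.

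The members are long genes. Their median genomic length was 242 kb against 21.5 kb for all genes tested, and 30 of 41 (73.2%) spanned at least 100 kb against 13.5% of all genes. In Kmt2a+/LSL against Kmt2a+/+ the 30 long members had a median log2 fold change of -0.21 and the 11 shorter ones 0.09, while all genes of at least 100 kb had -0.06 and shorter genes 0.01. The comparison of Nes-Cre+/- Kmt2a+/+ with Kmt2a+/+ involves no LSL allele, and there the long members had -0.08 and all long genes -0.07. For Nes-Cre+/- Kmt2a+/LSL against Nes-Cre+/- Kmt2a+/+ the long members had 0.12 and all long genes 0.03, and against Kmt2a+/LSL they had 0.21 and 0.03.

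Other genes of the same pathways were counted from lists. Of 31 tested synaptic scaffold and adhesion genes outside the members, none had an unadjusted p under 0.05 in Kmt2a+/LSL against Kmt2a+/+, and 1, the scaffold gene Homer2, in Nes-Cre+/- Kmt2a+/LSL against Kmt2a+/LSL (59.5 ± 2.44 against 44.1 ± 5.04 CPM, SD, n = 3, log2 difference 0.43 by edgeR, adjusted p = 1). Of 28 other voltage-gated channel genes, 1 had such a p in a comparison of 2 genotypes, the auxiliary subunit gene Cacna2d3 in Nes-Cre+/- Kmt2a+/LSL against Nes-Cre+/- Kmt2a+/+ (29.8 ± 7.6 against 20.1 ± 1.15 CPM). Of 28 other genes of the TSC, Ras-NF1 and FMRP pathways, 1 did, Tbc1d7, a subunit of the TSC complex, which was lower in Nes-Cre+/- Kmt2a+/+ than in Kmt2a+/+ (14.1 ± 1.69 against 22.8 ± 10.6 CPM). Of 8 reelin pathway genes none did in any comparison, and none of these genes was called.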

How the data were processed

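Poly(A) RNA of 12 mNPC cultures was sequenced by the authors, 3 per genotype. Per the methods of the study, reads were pseudoaligned with kallisto 0.48.0 to the mm10 (GRCm38) transcriptome and summed to genes with tximport. What was deposited are the authors' estimated counts, already whole and without normalization. The design foresaw plain counts, and the same test was applied to these estimates. Genotypes and replicate numbers were taken from the labels, and all 12 columns were used. Identifiers were matched to GENCODE symbols for 99.1% of 18911 genes. The members and all gene lists were chosen with earlier results of these data known.

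A gene was kept if its 12 counts summed to over 10 and at least 2 libraries had any, which left 17076 genes. TMM factors were computed and the genes compared in edgeR 4.0.16 (R 4.3.3) by the quasi-likelihood test with genotype as the only term, over all 12 libraries. Called means a Benjamini-Hochberg adjusted p under 0.05. Log2 levels per library used a prior count of 2. CPM per kb divides by the union of exons, and GC content is that of the transcripts. Single members were also compared with two-sided exact permutation tests. All 41 members passed the filter. Given in full were members with an unadjusted p under 0.05 in a comparison, members whose Kmt2a+/LSL libraries overlapped no other library, the member of each role with the highest level per kb, and Kmt2a. Others were named after their values were seen. Alternatives were DESeq2 1.42.0 with and without an empirical null, limma-voom (limma 3.58.1), robust fitting, other size factors and filters, the samples in the fit, a replicate block and leaving out each library. A GC offset and leaving out both GC-departing libraries were added after seeing the data. On simulated data for Kmt2a+/LSL against Kmt2a+/+ with 200 genes of 16804 changed 3-fold at the dispersions estimated per gene, edgeR recovered 43.5% with 6 false calls among 93, DESeq2 74.5% with 46 among 195, and the empirical null 82% with 103 among 267. At a dispersion of 0.05 (16907 genes) edgeR recovered 96.5%.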

Additional observations from a re-analysis of the deposited data

Results flagged for a closer look

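Pcdh15 moved in opposite directions with the LSL allele in the absence and presence of nestin-Cre. Without the transgene all 3 Kmt2a+/LSL libraries (0.337 to 1.18 CPM) lay below all 3 Kmt2a+/+ libraries (1.51 to 2.46 CPM), and with it all 3 Nes-Cre+/- Kmt2a+/LSL libraries (1.3 to 1.73 CPM) lay above all 3 Nes-Cre+/- Kmt2a+/+ libraries (0.171 to 0.894 CPM). The difference itself was tested as an interaction in edgeR and had a log2 value of 2.45 ± 0.82 (SE), which failed the adjustment over all genes (adjusted p = 0.9999). It lay between 2.01 and 2.81 when any 1 library was left out. The gene has 4 to 62 counts per library.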

How the results depend on the processing

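No member was called by edgeR under any normalization, filter, choice of samples or left-out library tried, and DESeq2 with an empirical null alone called any, 7 in Nes-Cre+/- Kmt2a+/LSL against Kmt2a+/LSL, 1 in Nes-Cre+/- Kmt2a+/LSL against Nes-Cre+/- Kmt2a+/+ and 4 in Kmt2a+/LSL against the other 3 genotypes. Of all genes, against 0 or 1 in edgeR, the DESeq2 Wald test called 7 in Kmt2a+/LSL against Kmt2a+/+, 7 in Nes-Cre+/- Kmt2a+/LSL against Kmt2a+/LSL, 3 in Nes-Cre+/- Kmt2a+/+ against Kmt2a+/+, 3 in Nes-Cre+/- Kmt2a+/LSL against Nes-Cre+/- Kmt2a+/+, 4 in Kmt2a+/LSL against the other 3 genotypes, 10 for the interaction and 5 for any difference. With the empirical null the first 6 of these numbers were 32, 945, 7, 261, 439 and 17. Limma-voom called 2 genes in Kmt2a+/LSL against Kmt2a+/+, 2 in Nes-Cre+/- Kmt2a+/LSL against Kmt2a+/LSL, 4 in Kmt2a+/LSL against the other 3 genotypes and 2 for any difference. In the same order the offset for GC content gave 1, 1, 2 and 1, and leaving out both GC-departing libraries gave 2, 1, 2 and 3, with 1 in Nes-Cre+/- Kmt2a+/+ against Kmt2a+/+. Both together gave 1 in Nes-Cre+/- Kmt2a+/LSL against Kmt2a+/LSL and 2 in Kmt2a+/LSL against the other 3 genotypes. A threshold of 0.1 gave 1 in Nes-Cre+/- Kmt2a+/LSL against Kmt2a+/LSL and 1 in Nes-Cre+/- Kmt2a+/+ against Kmt2a+/+. Leaving out 1 library at a time gave 0 to 2 genes in Kmt2a+/LSL against Kmt2a+/+, 0 to 1 in Nes-Cre+/- Kmt2a+/LSL against Kmt2a+/LSL, 0 to 2 in Kmt2a+/LSL against the other 3 genotypes and 0 to 3 for any difference, and the highest number was without Kmt2a+/+ replicate 1 in each. The cause was not tested.

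In Kmt2a+/LSL against Kmt2a+/+ 17 of 41 members changed sign without Kmt2a+/+ replicate 1. In Nes-Cre+/- Kmt2a+/+ against Kmt2a+/+ 20 of 40 did, with Cacna1e not counted. Of the members described in full for Kmt2a+/LSL against Kmt2a+/+, 5 changed sign under an alternative. Shank3 (0.24) was at -0.12 in limma-voom, -0.21 without Kmt2a+/+ replicate 1 and -0.21 without both GC-departing libraries. Nlgn2 (0.19) was at -0.21, -0.31 and -0.31, and at -0.050 with the GC offset added to the last. Ank2 (-0.04) was at 0.053, 0.050 and 0.050, and at 0.011 without Kmt2a+/LSL replicate 1. Cul3 (-0.42) was at 0.29, 0.37 and 0.37, and Ddx3x (-0.21) at 0.14, 0.17 and 0.17. With 1 library left out at a time they ranged from -0.21 to 0.65 (Shank3), -0.31 to 0.58 (Nlgn2), -0.12 to 0.050 (Ank2), -0.73 to 0.37 (Cul3) and -0.37 to 0.17 (Ddx3x), with the end of opposite sign reached without Kmt2a+/+ replicate 1 in each. Same-numbered libraries of different genotypes deviated together with a mean correlation of 0.084 (18 pairs, from -0.072 to 0.416), against -0.041 for different numbers (36 pairs), and 6 of 12 libraries correlated best with their own number. Not every same-numbered pair was above 0.1, so the numbers were not taken as a pairing. With the replicate as a block, 0 genes were called in Kmt2a+/LSL against the other 3 genotypes in place of 1, and no member's call changed. Depth limits Cntn5, Pcdh15, Cacna1c, Cacna1e, Cntnap2 and Scn1a, which had under 10 counts in at least 1 library, and intervals of counting error do not cover the differences between libraries. Shank1 and Tsc2 had under 10 counts only in Kmt2a+/+ replicate 1 (9 and 1), against at least 36 and 60 in the other libraries.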
